A study of Homo sapiens with 6 samples.

Results

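The Tigger and mariner DNA transposons were taken by name, as every entry of the deposited CPM table whose name begins with Tigger, HSMAR, MADE, MARNA, Kanga or MamRep, or is MER2, MER6, MER8, MER44, MER46 or MER82 with or without a letter from A to D. These names gave 76 of the 7383 repeats of that table: 40 Tigger entries, 12 Tigger-type MER entries, 5 mariner entries, 7 Kanga entries and 12 MamRep entries. No entry was named MER82. The 6 libraries, 2 in each of 3 groups, hold total RNA of the established human embryonic stem cell line H9. RSeT+DT cells were grown in RSeT, a commercial medium for a naive-like state, to which DZNep at 10 nM and TSA at 5 nM were added for 48 hours before collection. RSeT cells had the same medium without the compounds, and primed cells were grown in mTeSR. DZNep inhibits S-adenosylhomocysteine hydrolase and thereby lowers Polycomb histone methylation, and TSA (trichostatin A) inhibits histone deacetylases. All 3 groups were wild type, DZNep and TSA were given only together, and the labels name no vehicle for the RSeT cells.

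DNA transposons move by a cut-and-paste mechanism in which a transposase binds the inverted repeats at the ends of the element. The Tc1/mariner superfamily inserts at TA dinucleotides and has left several lineages in the human genome. Tigger elements belong to its pogo-like branch, and MER2, MER6, MER8, MER44 and MER46 are short relatives that carry no transposase of their own. HSMAR1 and HSMAR2 are human mariners, MADE1 and MADE2 are miniature mariner derivatives, MARNA is an older mariner, and Kanga1 elements belong to the Tc2 branch. None of these families is known to move in humans today, and their copies lie largely in introns and between genes. An HSMAR1 transposase survives as part of the SETMAR gene. The MamRep names stand for old mammalian repeats of mixed class. The deposited tables give no class, so they were kept as a group of their own.

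MADE1 is a near-perfect palindrome, and its transcribed copies fold into the hairpins of the miR-548 family of microRNAs, which is why this family shows in letters what a MADE1 copy looks like. The RefSeq table names 52 genes of this family, and 5 full hairpins were taken from it. The pair with the longest exact inverted repeats is printed, with the bases of each inverted repeat in capitals. MIR548M lies on the minus strand at chrX:95063141-95063226 and MIR548AW on the plus strand at chr9:132945707-132945771 (GRCh38.p14).
MIR548M: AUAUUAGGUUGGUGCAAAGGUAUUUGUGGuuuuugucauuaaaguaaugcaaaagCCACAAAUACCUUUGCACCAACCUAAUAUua
MIR548AW: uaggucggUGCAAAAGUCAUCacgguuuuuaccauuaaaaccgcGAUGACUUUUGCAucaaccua
The arms of MIR548M are 29 bases long and are separated by 26 bases, and those of MIR548AW are 13 bases long and separated by 23 bases. This pair was picked for its arms. MIR548AT, MIR548AR and MIR548AS, not printed, have exact arms of 12, 9 and 7 bases. The counts of MADE1 given here are sums over all its copies, so they are no measure of these microRNAs.

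Counts assigned to repeats summed to between 11520770 and 38312112 per library, with the deepest library in the RSeT group. The labels were checked on repeats, since gene-level values were not used here. HERVH-int, a retrovirus transcribed in pluripotent cells, was at 118600 and 114900 CPM in both RSeT+DT libraries, 73440 and 75620 CPM in RSeT cells and 23830 and 26520 CPM in primed cells. HERVK-int, which is active in naive-like cells, was at 16530 and 17480 CPM in RSeT+DT and 20070 and 19230 CPM in RSeT, against 335.8 and 344.5 CPM in primed cells. The trophoblast LTRs MER21A, LTR10A and MER41B were between 36.29 and 345.8 CPM in all 6 libraries, and their part in the results was not tested. The groups were compared with the quasi-likelihood test of edgeR at an adjusted p under 0.05 over all 4665 features tested, and all 76 names passed the filter on low counts. Whether a small change was up or down varied with the scaling. Fold changes are therefore given with TMM factors over all repeats, which was the main scaling, and with interspersed scaling, for which simple repeats, small RNA and ribosomal RNA were left out first. CPM values are the deposited ones, with no TMM factor. Library totals without TMM factors were the third scaling. Interspersed repeats here are all repeats other than simple repeats, satellites, small RNA and ribosomal RNA.

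The summed counts of the 76 names formed a small share of interspersed repeat RNA that was lowest in RSeT+DT cells. The RSeT+DT libraries had shares of 2.17% and 2.26%, the RSeT libraries 2.69% and 2.65%, and the primed libraries 2.82% and 2.81%, so the groups did not overlap. A lower share can mean less of this RNA or more of other repeat RNA. HERVH-int, part of the total, was at 118600 and 114900 CPM in RSeT+DT, against 73440 and 75620 CPM in RSeT. Its part in the lower share was not tested. Fewer cells with Tigger and mariner RNA and less of it per cell cannot be told apart either in these bulk libraries. The order of the groups depended on the total. When HERVH-int, LTR7, HERVK-int and LTR5_Hs were left out of it, a choice made after the values were seen, the means were 2.95 ± 0.056% for RSeT+DT, 3.16 ± 0.038% for RSeT and 2.96 ± 0.0012% for primed cells (SD, n = 2 each). RSeT was then the highest group, and the RSeT+DT and primed libraries overlapped. Tigger1 alone held 18.4% of the summed counts in each RSeT+DT library, 19.4% in each RSeT library, and 16.9% and 16.6% in the primed libraries.

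**Figure D1:**
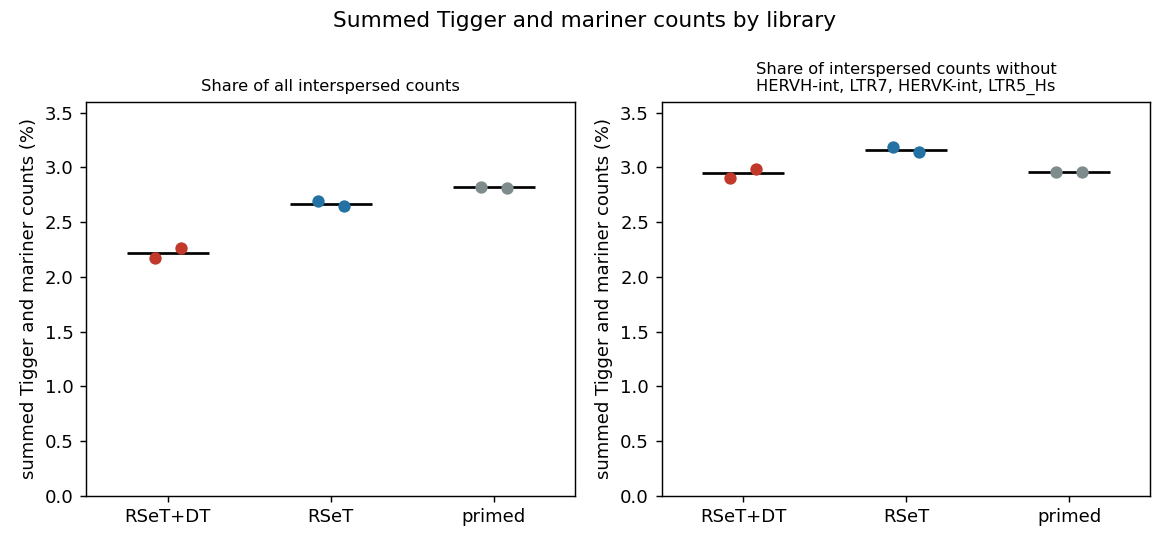
Summed counts of the 76 Tigger and mariner names as a percentage of interspersed repeat counts, in each library (points) with the group mean (line), for 2 choices of the total. The RSeT+DT libraries lie lowest in the left panel, and RSeT lies highest in the right panel, where the RSeT+DT mean is 2.95% and the primed mean 2.96%.

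The comparison of RSeT+DT with RSeT addresses the effect of both compounds on cells kept in RSeT. Most of these names were called lower in RSeT+DT cells with TMM and with library totals, but not under interspersed scaling. With TMM, 60 of 76 fell and 2 rose, with a median log2 fold change of -0.31. Over all features tested 17.4% fell and 25.0% rose, with a median of 0.027, and among interspersed repeats 54.7% fell and 5.55% rose, with a median of -0.22. Falls were thus common among interspersed repeats as a whole. With library totals 67 fell and 0 rose, against 73.1% and 2.20%. Under interspersed scaling 32 of the 76 fell and 12 rose (median -0.093), against 20.7% and 22.4% of all interspersed repeats. The same 32 names fell with TMM, library totals and interspersed scaling, against 20.7% of all interspersed repeats called lower under all 3. Under all 3, 0 of 76 rose, against 2.21%. The 32 are the falls of interspersed scaling again, so the other scalings added no separate check. The log2 fold changes of these 32 lay between -0.80 and -0.31 with TMM and between -0.58 and -0.089 under interspersed scaling. Fits that left out a library were made with TMM only.

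**Figure D2:**
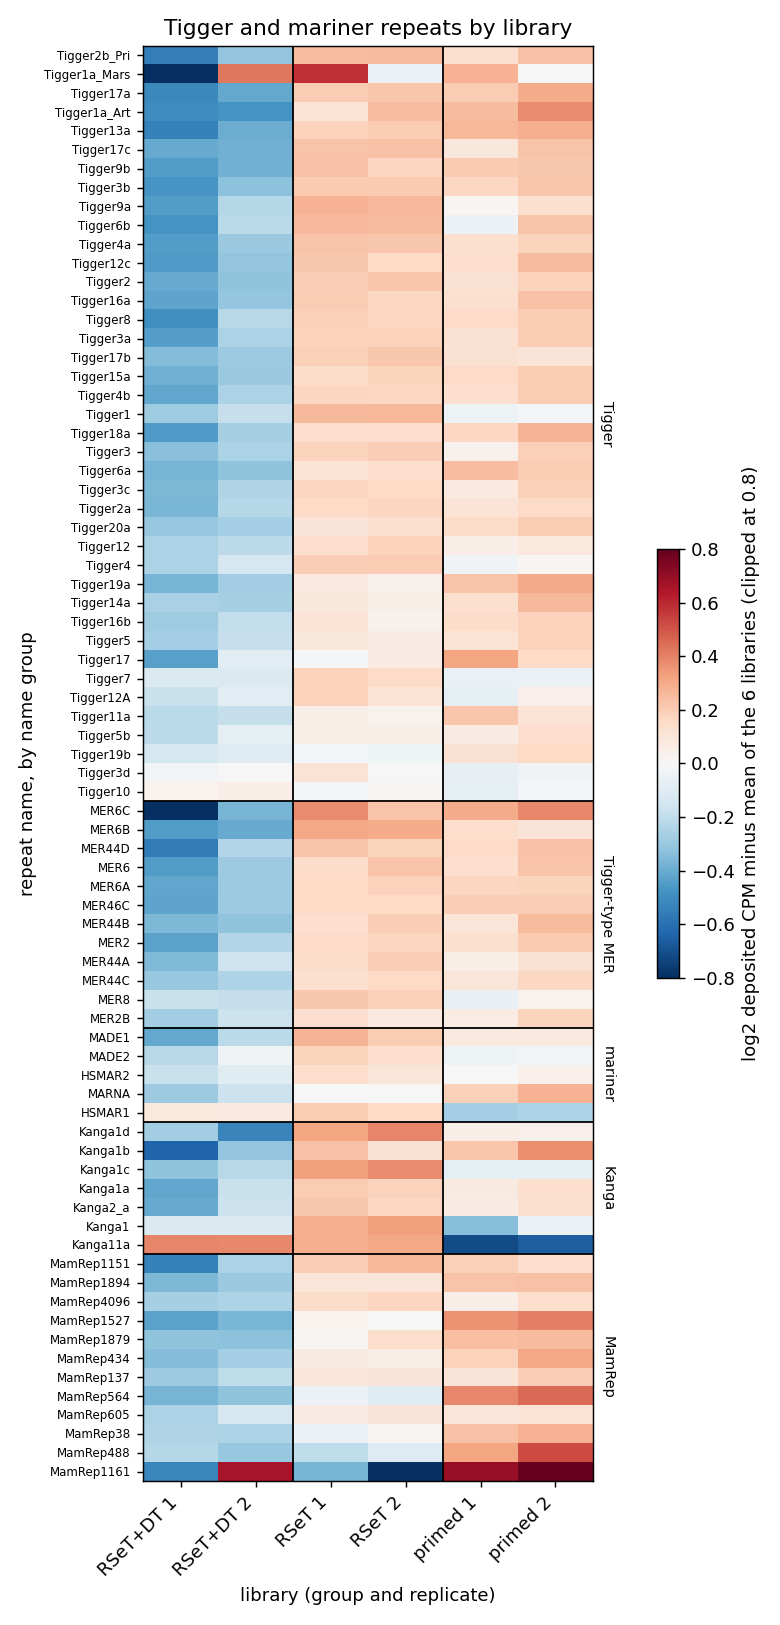
Deposited CPM of each of the 76 names in each library, as log2 minus the mean of the 6 libraries, with names ordered within each name group by the difference between RSeT+DT and RSeT. Most rows are blue in both RSeT+DT libraries, Kanga11a and HSMAR1 are blue in the primed libraries, and values of MamRep1161, Tigger1a_Mars and MER6C beyond 0.8 are clipped.

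Among the Tigger entries 31 of 40 (77.5%) fell with TMM, against 17.4% of all features and 54.7% of interspersed repeats. Under all 3 scalings 19 of 40 fell, against 20.7% of interspersed repeats. Tigger1, the name with the most counts, was at 2434 and 2609 CPM in RSeT+DT, against 3560 and 3563 CPM in RSeT. The groups did not overlap, and the log2 fold change was -0.35 (SE 0.037), or -0.13 under interspersed scaling. Lower CPM without overlap was common here, with 71 of 76 names and 85.9% of the interspersed repeats tested, so it does not set Tigger1 apart. Tigger13a was at 186.7 and 206.4 CPM in RSeT+DT, against 309.0 and 313.1 CPM in RSeT. It fell by 0.51 on the log2 scale (SE 0.037; adjusted p = 6.04e-11, edgeR) and by 0.29 under interspersed scaling. Tigger17a was at 211.1 and 227.5 CPM in RSeT+DT, against 347.3 and 351.7 CPM in RSeT (log2 fold change -0.52, SE 0.039). Tigger2b_Pri (-0.53), Tigger1a_Art (-0.50), Tigger17c (-0.47) and Tigger9b (-0.47) completed the Tigger entries among the 10 largest falls, and each passed under all 3 scalings. Tigger2 (-0.42), Tigger3a (-0.38) and Tigger4 (-0.23) also fell with TMM, and Tigger4 stood at -0.016 under interspersed scaling, not passing.

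Tigger10 went the other way. It was at 248.0 and 252.2 CPM in RSeT+DT, against 241.2 and 244.6 CPM in RSeT. It rose by 0.20 with TMM (SE 0.035) and by 0.42 under interspersed scaling, but stood at 0.042 with library totals, not passing. In deposited CPM its groups were nearly level while most Tigger entries were lower in RSeT+DT. Tigger7 fell by 0.13 with TMM and rose by 0.087 under interspersed scaling, and its fall did not pass without RSeT+DT replicate 2 or RSeT replicate 1. Tigger19b (0.054), Tigger5b (-0.036) and Tigger3d (0.078) did not pass with TMM, and passed as higher under interspersed scaling at 0.27, 0.18 and 0.30. Tigger17b (-0.36, SE 0.16) and Tigger1a_Mars (-0.44, SE 0.37) did not pass under either, but Tigger1a_Mars passed at -1.41 without RSeT+DT replicate 2.

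All 12 Tigger-type MER entries fell with TMM, against 17.4% of all features and 54.7% of interspersed repeats. Under all 3 scalings 8 of them fell, against 20.7% of interspersed repeats. MER2, the one with the most counts, was at 649.9 and 744.3 CPM in RSeT+DT, against 972.1 and 985.0 CPM in RSeT. MER2 fell by 0.34 with TMM (SE 0.048) and by 0.12 under interspersed scaling. MER6B was at 34.52 and 35.59 CPM in RSeT+DT, against 58.34 and 57.94 CPM in RSeT, with a log2 fold change of -0.58 (SE 0.068) that was -0.36 under interspersed scaling. MER6C had the largest fall of all 76 names. It was at 4.29 and 6.25 CPM in RSeT+DT (56 and 72 counts), against 10.49 and 9.48 CPM in RSeT (402 and 163 counts). Its log2 fold change was -0.80 (SE 0.17), and it lay between -1.05 and -0.56 when a library was left out. MER6 (-0.40) and MER46C (-0.36) fell under all 3 scalings, while MER44A (-0.27) and MER8 (-0.23) did not pass under interspersed scaling, at -0.055 and -0.011. MER6C and MER6B stood lowest within this group, and MER2B (-0.18), which did not pass without RSeT replicate 1, stood highest.

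Of the 5 mariner entries 3 fell and none rose with TMM (median -0.10), and 3 rose and 1 fell under interspersed scaling (median 0.11). The falls with TMM are 60.0% of the entries, near the 54.7% of interspersed repeats and above the 17.4% of all features. MADE1 was at 102.96 and 117.62 CPM in RSeT+DT, against 164.9 and 157.1 CPM in RSeT. It fell by 0.40 with TMM (SE 0.049) and by 0.18 under interspersed scaling, and was the single mariner entry of 5 that fell under all 3 scalings. HSMAR1, the element from which MADE1 derives, was at 279.6 and 277.7 CPM in RSeT+DT, against 302.8 and 294.0 CPM in RSeT. Its log2 fold change of 0.054 (SE 0.035) did not pass with TMM, and it rose by 0.27 under interspersed scaling. The difference between HSMAR1 and MADE1 was not tested. HSMAR2 (-0.10) passed as lower with TMM but in none of the 6 fits that left out a library, and rose by 0.11 under interspersed scaling. MADE2 (-0.13) passed with TMM and in just the fit without RSeT+DT replicate 2, and its 0.089 under interspersed scaling did not pass. MARNA stood at -0.073, not passing, with TMM and rose by 0.15 under interspersed scaling.

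Of the 7 Kanga entries 6 fell with TMM and 1 rose. Of interspersed repeats 54.7% fell and 5.55% rose with TMM, and of all features 17.4% and 25.0%. Kanga1d was at 20.36 and 17.10 CPM in RSeT+DT, against 30.72 and 32.29 CPM in RSeT (log2 fold change -0.58, SE 0.10). Kanga1b (-0.51) and Kanga1c (-0.47) also fell under all 3 scalings. Kanga1 fell by 0.27 with TMM and stood at -0.049 under interspersed scaling, not passing. Kanga11a was at 424.6 and 422.0 CPM in RSeT+DT, against 395.1 and 401.7 CPM in RSeT, and rose by 0.24 with TMM (SE 0.040) and by 0.46 under interspersed scaling, but not with library totals (0.088). Among the MamRep entries 8 of 12 (66.7%) fell with TMM, not far from the 54.7% of interspersed repeats. MamRep1151 (-0.47) was the 1 that fell under all 3 scalings. Under interspersed scaling 1 fell and 3 rose (median 0.011), with MamRep488 at 0.28, MamRep38 at 0.15 and MamRep605 at 0.099, against 0.056, -0.070 and -0.12 with TMM. Of these MamRep605 was called lower with TMM, and was lost there without RSeT+DT replicate 1 or either RSeT library. MamRep1161 was at 0.31 and 0.69 CPM in RSeT+DT (4 and 8 counts), against 0.34 and 0.17 CPM in RSeT (13 and 3 counts). It stood at 0.93 (SE 0.64), not passing.

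**Figure D3:**
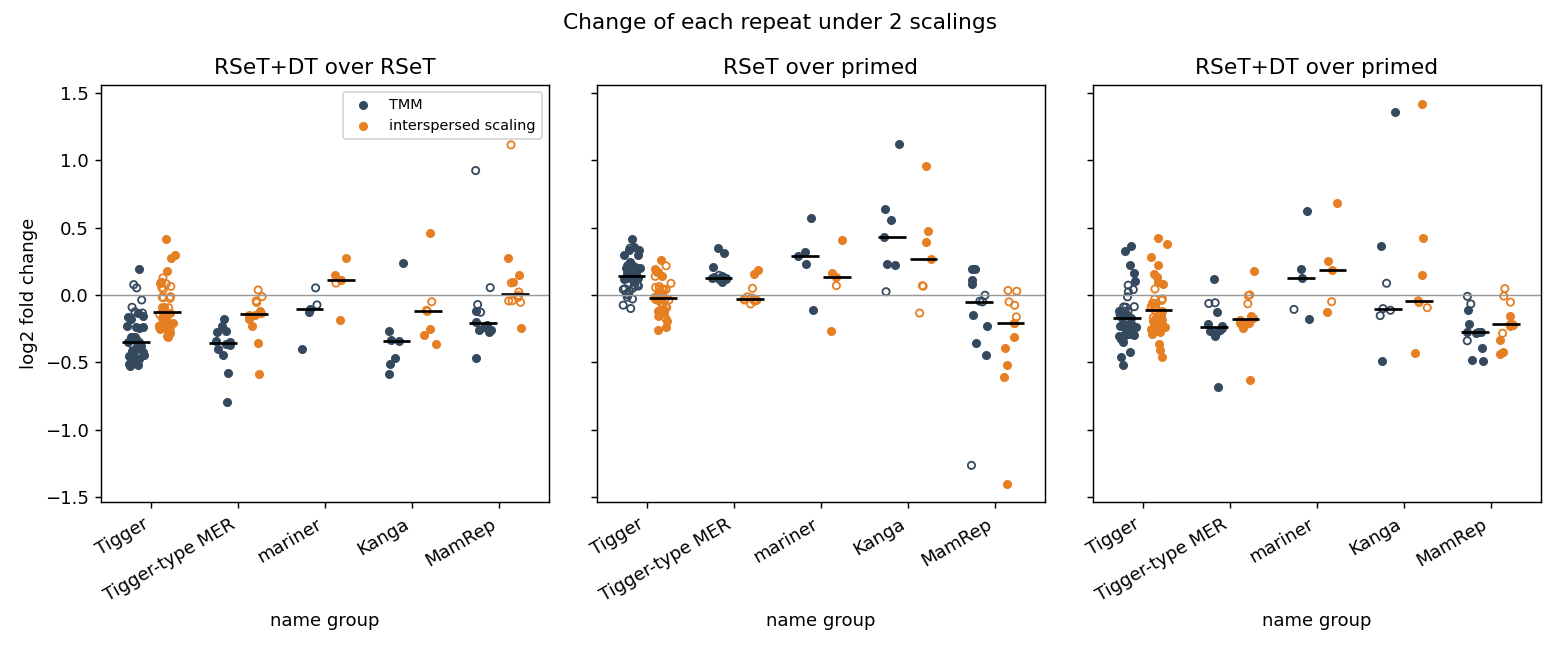
Log2 fold change of each of the 76 names by name group in the 3 comparisons, with TMM (dark) and interspersed scaling (orange). Filled points passed the test, open points did not, and lines are medians. Tigger and Tigger-type MER entries lie mostly below 0 in RSeT+DT over RSeT under either scaling, and Kanga11a is the highest point in the other 2 panels.

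The hAT elements, the other large superfamily of human DNA transposons, had 77 of 110 tested names lower and 3 higher with TMM (median -0.26), and 28 lower and 17 higher under interspersed scaling (median -0.042). The other names of the Tc1/mariner superfamily outside the rule also fell: MER104 fell by 0.37 and MER127 by 0.62 with TMM, and both fell under all 3 scalings. Of the 5 piggyBac names 3 fell and none rose with TMM, and 1 fell and 1 rose under interspersed scaling. MIR and L2, which are old and lie widely in introns, had 9 of 12 lower with TMM (median -0.22). Alu had 24 of 47 lower and 3 higher with TMM (median -0.13). Under interspersed scaling MIR and L2 had none lower and 2 higher, and Alu none lower and 25 higher. The medians under this scaling were 0.00026 for MIR and L2 and 0.086 for Alu, and -0.093 for the 76 names. Reads from introns of host transcripts can count for all of these lists. How far they did is not known, and their part in the falls was not tested.

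**Figure D4:**
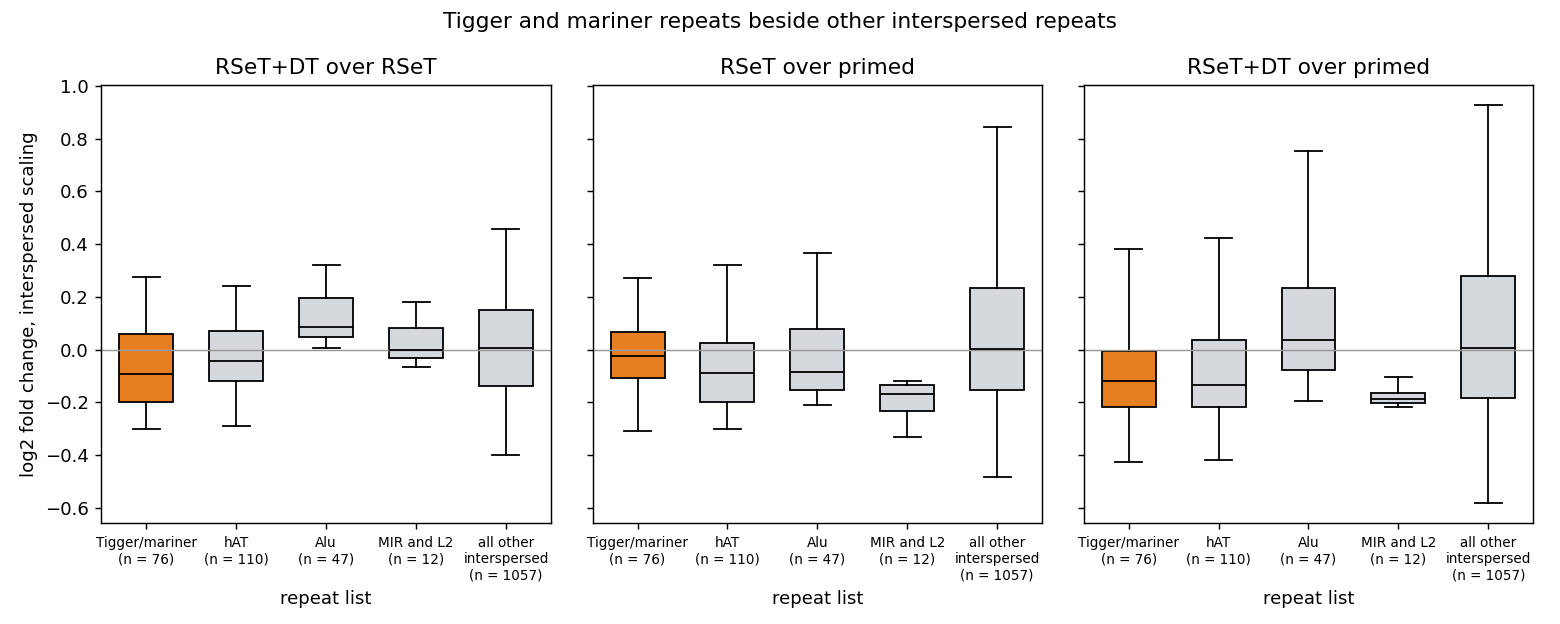
Log2 fold changes under interspersed scaling of the 76 Tigger and mariner names (orange) and of 4 other lists (grey) in the 3 comparisons; boxes span the quartiles with the median, and whiskers the 5th to 95th percentiles. In RSeT+DT over RSeT the Tigger and mariner median is -0.093, with hAT at -0.042 and Alu at 0.086.

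The comparison of RSeT with primed cells sets a naive-like medium against a primed one. Kanga11a, Kanga1, HSMAR1 and Kanga1c, in this order, had the largest rises that passed with TMM. Several MamRep entries fell, and the calls of most Tigger entries depended on the scaling. With TMM, 49 of 76 rose and 5 fell (median 0.14), against 22.8% and 23.8% of all features (median -0.030) and 50.8% and 8.01% of interspersed repeats (median 0.16). These 49 are 64.5% of the names. With library totals there were 14 rises and 10 falls, against 29.1% and 16.8%. Interspersed scaling gave 14 rises and 16 falls (median -0.023), against 29.8% and 26.3%. A call in the same direction under all 3 scalings was found for 14 rises, or 18.4% of the names, and 5 falls, or 6.58%. The shares of interspersed repeats were 28.8% and 8.03%. The 14 rises are those of interspersed scaling again, and the 5 falls those of TMM. The share of rises was thus above that of interspersed repeats with TMM and below it under all 3 scalings. The count of rises was 27 without primed replicate 1 and 28 without RSeT replicate 1, and that of falls was 3 without RSeT replicate 1 or either primed library, whereas the 14 rises passed in each fit that left out a library.

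Kanga11a was at 395.1 and 401.7 CPM in RSeT, against 197.3 and 204.6 CPM in primed cells, the largest change of the 76 names that passed with TMM. The log2 fold change was 1.12 (SE 0.041; adjusted p = 8.57e-18, edgeR) with TMM, 0.96 under interspersed scaling and 0.99 with library totals. Kanga1, Kanga1c and Kanga1d also rose under all 3 scalings, with Kanga1 at 0.64, Kanga1c at 0.56 and Kanga1d at 0.43. Kanga1 was at 63.80 and 65.33 CPM in RSeT, against 41.04 and 50.41 CPM in primed cells, with no overlap. Higher CPM without overlap was found for 29 of 76 names (38.2%) and for 42.1% of the interspersed repeats tested. Kanga2_a and Kanga1a (0.23 each) rose with TMM, Kanga1a not without RSeT replicate 1, and did not pass under interspersed scaling (0.070 and 0.066).

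HSMAR1 was at 302.8 and 294.0 CPM in RSeT, against 218.3 and 222.1 CPM in primed cells, with no overlap, as for 42.1% of interspersed repeats. It rose by 0.57 with TMM (SE 0.036) and by 0.41 under interspersed scaling. MADE1 (0.29) and MADE2 (0.32) also rose under all 3 scalings, with 0.13 and 0.16 under interspersed scaling. MADE1 was at 164.9 and 157.1 CPM in RSeT, against 144.3 and 144.4 CPM in primed cells. HSMAR2 rose by 0.23 with TMM and stood at 0.071 under interspersed scaling, not passing. MARNA fell by 0.11 with TMM (SE 0.040) and by 0.27 under interspersed scaling. The TMM call of MARNA was lost when any RSeT or primed library was left out, whereas its CPM of 362.1 and 362.3 in RSeT lay below the 415.2 and 440.6 in primed cells.

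Among the Tigger entries 25 of 40 rose and none fell with TMM, whereas 5 rose and 8 fell under interspersed scaling. With TMM 50.8% of interspersed repeats rose and 8.01% fell, and 22.8% and 23.8% of all features. Under interspersed scaling 29.8% of interspersed repeats rose and 26.3% fell. Tigger1 was at 3560 and 3563 CPM in RSeT, against 2890 and 2949 CPM in primed cells, and rose by 0.42 with TMM (SE 0.037) and by 0.26 under interspersed scaling. Tigger7 (0.35), Tigger4 (0.34), Tigger9a (0.33) and Tigger12A (0.30) also rose under all 3 scalings. Tigger2 (0.19) and Tigger3a (0.15) rose with TMM and stood at 0.024 and -0.0071 under interspersed scaling, not passing, and Tigger3a did not pass with TMM without RSeT replicate 1 or primed replicate 1. Tigger4a (0.20) and Tigger4b (0.13), named as relatives of Tigger4, did not pass under interspersed scaling (0.042 and -0.027), and Tigger4b was also lost without RSeT replicate 1 or primed replicate 1. Tigger19b (-0.029), Tigger17b (0.22) and Tigger1a_Mars (0.35) did not pass with TMM, and Tigger19b fell by 0.19 under interspersed scaling.

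The Tigger-type MER entries had 10 of 12 higher with TMM, but only MER8 and MER6B rose under all 3 scalings. Of interspersed repeats 50.8% were higher with TMM and 28.8% under all 3, and of all features 22.8% were higher with TMM. MER8 was at 331.6 and 326.0 CPM in RSeT, against 274.6 and 291.3 CPM in primed cells (log2 fold change 0.35, SE 0.036). MER6B was at 58.34 and 57.94 CPM in RSeT, against 51.85 and 50.49 CPM in primed cells (0.31). MER2 rose by 0.13 with TMM, not without RSeT replicate 1, RSeT replicate 2 or primed replicate 1, and stood at -0.036 under interspersed scaling, and its libraries overlapped in CPM. MER6 (0.13) and MER46C (0.096) passed with TMM, but not once any RSeT or primed library was left out, and stood at -0.028 and -0.065 under interspersed scaling. In deposited CPM MER46C went the other way from its TMM call. It was at 302.49 and 301.87 CPM in RSeT, against 309.80 and 309.82 CPM in primed cells, lower with no overlap. MER44A rose by 0.21 with TMM and stood at 0.051 under interspersed scaling, not passing.

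The MamRep entries held 4 of the 5 falls. MamRep488 was at 18.95 and 20.30 CPM in RSeT, against 27.14 and 31.41 CPM in primed cells, and fell by 0.45 with TMM (SE 0.094) and by 0.61 under interspersed scaling. MamRep564 (-0.36), MamRep1527 (-0.23) and MamRep38 (-0.15) fell under all 3 scalings too. MamRep38 did not pass without RSeT replicate 1 or without a primed library. Of 12 MamRep names, TMM called 4 higher and 4 lower, and interspersed scaling 0 higher and 7 lower. Of interspersed repeats 50.8% were higher and 8.01% lower with TMM, and 29.8% and 26.3% under interspersed scaling. MamRep1161 was at 0.34 and 0.17 CPM in RSeT (13 and 3 counts), against 0.71 and 0.81 CPM in primed cells (12 and 11 counts). It stood at -1.26 (SE 0.55), not passing with TMM, and passed as lower under interspersed scaling (-1.40).

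**Figure D5:**
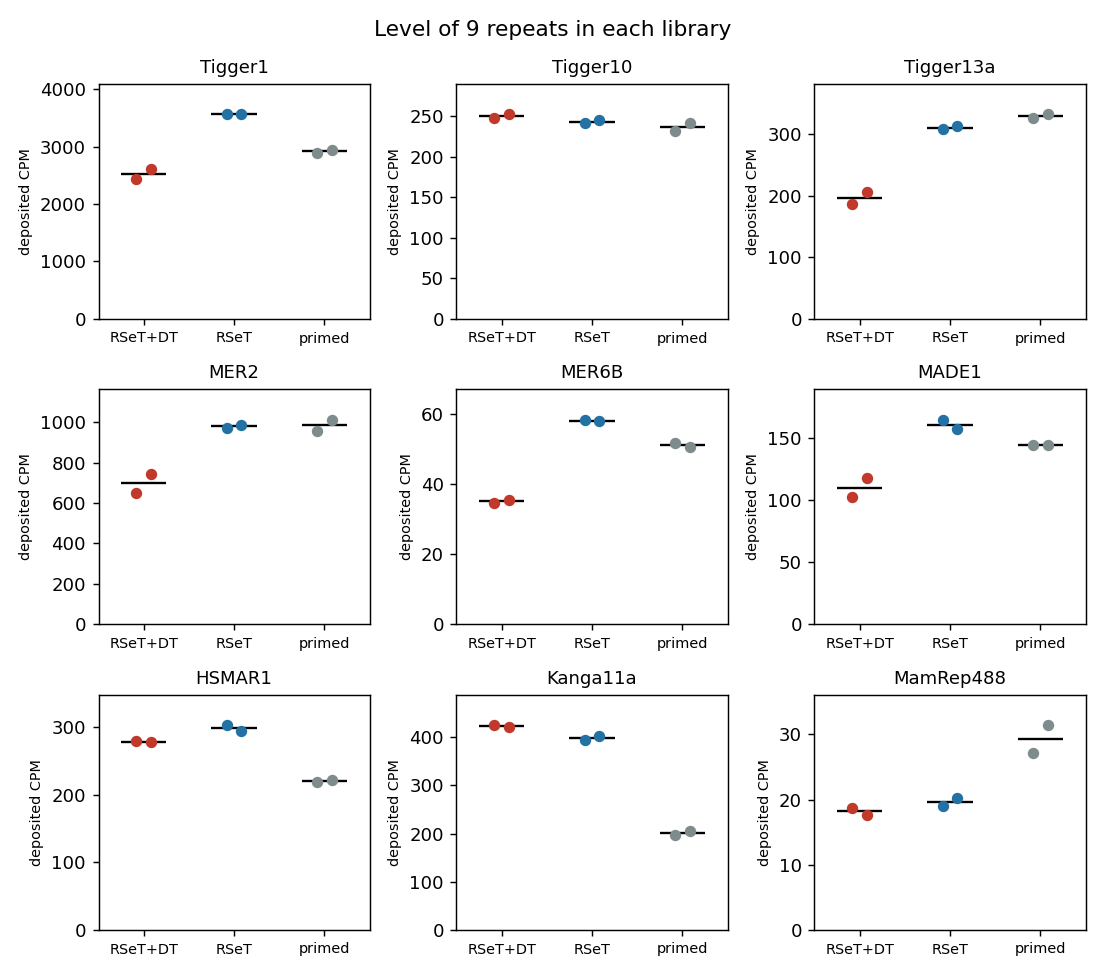
Deposited CPM of 9 of the 76 names in each library (points) with the group mean (line), each axis starting at 0. Kanga11a and HSMAR1 are lowest in primed cells, Tigger1, Tigger13a, MER2, MER6B and MADE1 are lowest in RSeT+DT cells, Tigger10 is nearly level, and MamRep488 is highest in primed cells.

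In this comparison hAT names had 41 of 110 higher and 9 lower with TMM (median 0.073), and 17 higher and 47 lower under interspersed scaling (median -0.089). MER104 (0.098) and MER127 (0.16) did not pass. With TMM, MIR and L2 had none higher and 2 of 12 lower, and Alu 17 of 47 higher and none lower. Under interspersed scaling all 12 MIR and L2 names were lower, and Alu had 25 lower and 9 higher. Their medians under this scaling were -0.17 and -0.085, below the -0.023 of the 76 names.

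RSeT+DT against primed cells compares the treated naive-like culture with the primed culture and shares its libraries with the comparisons above. With TMM, 11 of 76 rose and 43 fell (median -0.18), against 25.1% and 20.6% of all features (median -0.0089) and 24.4% and 34.3% of interspersed repeats (median -0.068). With library totals there were 2 rises and 66 falls, against 10.5% and 61.1%. Under interspersed scaling 15 rose and 37 fell (median -0.12), against 32.1% and 29.6%. Of the hAT names 62 of 110 fell and 12 rose with TMM, and 57 fell and 16 rose under interspersed scaling. MIR and L2 had 10 of 12 lower and none higher under either scaling, and MER104 and MER127 fell under all 3. Alu had 17 of 47 lower and 12 higher with TMM, and 13 lower and 16 higher under interspersed scaling. Of the 5 piggyBac names 2 fell and none rose with TMM, and 1 fell and 1 rose under interspersed scaling. Under all 3 scalings 2 of the 76 names rose and 37 fell, against 10.5% and 29.5% of interspersed repeats. The 37 falls are those of interspersed scaling again, and the rises those of library totals. The 2 rises were Kanga11a and HSMAR1. Kanga11a was at 424.6 and 422.0 CPM in RSeT+DT, against 197.3 and 204.6 CPM in primed cells (log2 fold change 1.36, SE 0.041; 1.42 under interspersed scaling). HSMAR1 was at 279.6 and 277.7 CPM in RSeT+DT, against 218.3 and 222.1 CPM in primed cells (0.63, SE 0.037; 0.68 under interspersed scaling).

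Tigger10 rose by 0.37 and Tigger3d by 0.32 with TMM, and neither passed with library totals (0.080 and 0.039). Kanga1 rose by 0.37 with TMM, at 48.07 and 48.09 CPM in RSeT+DT cells, against 41.04 and 50.41 CPM in primed cells, so its libraries overlapped. The largest fall was that of MER6C (-0.68, SE 0.18), which was lost without RSeT+DT replicate 1. Tigger1a_Art (-0.52), MamRep1527 (-0.49), Kanga1b (-0.49), MamRep564 (-0.48), Tigger13a (-0.46) and Tigger17a (-0.42) followed, and all 6 fell under all 3 scalings and in every fit that left out a library. Tigger13a was at 186.7 and 206.4 CPM in RSeT+DT, against 326.6 and 332.8 CPM in primed cells. MamRep488 fell by 0.39 and was lost without RSeT+DT replicate 2 or primed replicate 2. Tigger9b (-0.35) and Tigger2b_Pri (-0.33) completed the 10 largest falls. MER46C (-0.27), MER6 (-0.26), Tigger2 (-0.23), Tigger3a (-0.22), MER2 (-0.21) and MARNA (-0.18) also fell under all 3 scalings. MADE1 (-0.11) and MER44A (-0.062) did not pass with TMM, but did so without RSeT+DT replicate 2, and neither did MamRep1161 (-0.34), Tigger17b (-0.15), Tigger1a_Mars (-0.089) or Tigger19b (0.025) pass. Tigger1 (0.074) did not pass with TMM, rose by 0.13 under interspersed scaling and fell by 0.21 with library totals, and with TMM it passed in the fits without RSeT+DT replicate 1 or RSeT replicate 2. HSMAR2 (0.13), MADE2 (0.20), MER8 (0.12), Tigger4 (0.10) and Tigger7 (0.22) rose with TMM. With library totals HSMAR2 (-0.16), MER8 (-0.17) and Tigger4 (-0.18) passed as lower, and MADE2 (-0.089) and Tigger7 (-0.063) did not pass. Tigger12A rose by 0.17 with TMM, not without primed replicate 1, and stood at -0.12 with library totals, not passing. With TMM, HSMAR2 was lost without primed replicate 2, MER8 without RSeT+DT replicate 1 or either primed library, and Tigger4 without RSeT+DT replicate 2, RSeT replicate 1 or either primed library. By group, 23 of 40 Tigger, 9 of 12 Tigger-type MER, 1 of 5 mariner, 1 of 7 Kanga and 9 of 12 MamRep names fell with TMM, and 5, 1, 3, 2 and 0 rose. Of interspersed repeats 34.3% fell and 24.4% rose with TMM, and of all features 20.6% and 25.1%.

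The replicates of a group were close but not equal. In RSeT+DT 68 of 76 names had a lower CPM in replicate 1 than in replicate 2, by a median of 0.099 on the log2 scale, and other interspersed repeats were lower there by a median of 0.073. In primed cells 67 of 76 were lower in replicate 1, by a median of 0.060, and in RSeT 36 of 76. The names shared these offsets. Across the 76 names Pearson's r between the log2 fold change with TMM and log2 of the mean CPM was -0.11 and Spearman's rho 0.15 for RSeT+DT against RSeT. They were 0.36 and 0.079 for RSeT against primed cells, and 0.25 and 0.23 for RSeT+DT against primed cells. These are descriptions over names that share libraries and depth. Lengths and copy numbers were not used, so the order of names by counts is no order of RNA per copy, and related Tigger subfamilies can share reads.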

How the data were processed

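Per the labels' protocols, total RNA was purified with the miRNeasy kit and made into stranded libraries. The submitters' processing notes name STAR 2.7.8a, Trimmomatic 0.39, Subread 2.14.2 and featureCounts, and the build GRCh38. Which tool did what, the repeat annotation, the strand setting and the handling of multi-mapped reads are not stated in these sources. The authors deposited raw counts for 15600 repeat names, each a sum over genomic copies, and CPM for 7383 of them. The deposited CPM equal counts scaled to the sum of the listed entries, within 0.00442 CPM.

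Counts were tested with edgeR 4.0.16 (R 4.3.3), by the quasi-likelihood test with TMM factors, filterByExpr (10 counts, total of 15), all 6 libraries and group as the only term. P-values were adjusted by Benjamini-Hochberg over 4665 features. The SE is the absolute log2 fold change divided by the root of F. Interspersed scaling tested 1151 features, satellites included. The fit had 3 residual degrees of freedom. An exact permutation test of 2 against 2 libraries cannot go below p = 0.333. No label states that replicates were separate cultures: the p-values reflect variation among these libraries only, and it may be technical. The test was checked on simulated data in which few features changed, as many up as down, so that check cannot address the choice of scaling. Alternatives were RLE factors, library totals, interspersed scaling, other filters, DESeq2 1.42.0, limma 3.58.1 on log2 of CPM plus 1 or 0.1, a replicate block, fits of the compared groups alone and a 1.2-fold minimum. Single libraries were also left out, with TMM factors only.

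Named in each comparison are the 10 largest rises and falls that passed without overlap in CPM, the 3 names with the highest and the 3 with the lowest mean CPM and a list of well-known elements. Some of the names called under just 1 of TMM and interspersed scaling are also given. The members and lists were chosen with earlier results of these data known. The spelling BLACKJACK was added to the hAT list after the names were seen.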

Additional observations from a re-analysis of the deposited data

How the results depend on the processing

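For RSeT+DT against RSeT, the 60 falls became 32 and the 2 rises 12 under interspersed scaling, with 0 rises under library totals and both limma fits, and 29 falls and 0 rises at a minimum change of 1.2-fold. The median of -0.31 was -0.47 with library totals, -0.093 with interspersed scaling, -0.37 at a mean count of at least 50, -0.46 and -0.47 in limma with 1 and 0.1 added, and -0.33 to -0.26 with a library left out. For RSeT against primed cells, the 49 rises and 5 falls became 14 and 10 with library totals, 14 and 16 with interspersed scaling, 13 and 10 or 12 and 9 in limma, and 9 and 1 at 1.2-fold, with 3 falls in DESeq2. Leaving out a library gave 27 to 52 rises and 3 to 5 falls. The median of 0.14 was 0.0042 with library totals, -0.023 with interspersed scaling and 0.0047 in both limma fits. For RSeT+DT against primed cells, the 11 rises became 2 with library totals and both limma fits, 7 without a filter, 6 at a mean count of at least 50 and 3 at 1.2-fold. The 43 falls became 66, 66 and 66 with library totals and limma, and 7 at 1.2-fold. The median of -0.18 was -0.46 with library totals, -0.12 with interspersed scaling, -0.26 at a mean count of at least 50, and -0.45 and -0.48 in limma.

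Of the 76 names, 12 changed sign under interspersed scaling in RSeT+DT against RSeT with a call under either scaling, and 3 of these (HSMAR2, MamRep605 and Tigger7) were called lower with TMM and higher with interspersed scaling. In RSeT against primed cells 23 changed sign with a call under either, and 11 did so with library totals, none with opposite calls. In RSeT+DT against primed cells 10 did so with library totals, 3 of them (HSMAR2, MER8 and Tigger4) with opposite calls. Among the names described by rule, signs changed under interspersed scaling in RSeT+DT against RSeT for HSMAR2 (0.11), MADE2 (0.089), MARNA (0.15) and Tigger7 (0.087), and in RSeT against primed cells for MER2 (-0.036), MER46C (-0.065), MER6 (-0.028) and Tigger3a (-0.0071). MER2 and MER46C also changed with library totals (-0.0070 and -0.036) and limma (-0.0065 and -0.036). In RSeT+DT against primed cells, library totals gave -0.16 for HSMAR2, -0.089 for MADE2, -0.17 for MER8, -0.21 for Tigger1, -0.26 for Tigger19b, -0.18 for Tigger4 and -0.063 for Tigger7, and limma gave the same rounded values except -0.090 for MADE2. These sign changes came with a shift that the names shared. In RSeT+DT against RSeT the quartiles of the 76 names were -0.42 and -0.16 with TMM. Under interspersed scaling they were -0.20 and 0.058. What lies behind the shift was not tested. With the replicate number as a block, RSeT+DT against RSeT kept counts of 60 and 2, RSeT against primed 49 and 5, and RSeT+DT against primed had 44 falls and 11 rises. The numbers share no stated culture, and deviations of equal-numbered libraries correlated at 0.050, -0.040 and 0.0015. The depth limits MamRep1161 and Tigger1a_Mars, whose mean counts are under 50.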
